A study of Homo sapiens with 27 samples.

Results

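The genes with long 3′ UTRs were the 2706 protein-coding genes whose counted 3′ UTR had a length of 5000 bases or more and that held 270 or more reads over 27 PAC-seq libraries, out of 19540 genes in the 3′ UTR table. The read minimum equals a mean of 10 reads per library. Of 3439 genes of that length, 2706 passed it, as did 11509 genes of any length. The comparison class was the 4282 genes with lengths of 1000 to 3000 bases and the same read minimum. NLGN4Y and TNPO2, at 5000 bases, were the members nearest to the length limit, and EDA and ZNF599, at 4998 bases, fell just outside it.

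A 3′ UTR is the stretch of an mRNA between its stop codon and its poly(A) tail. It carries binding sites for microRNAs and RNA-binding proteins, and a gene with several poly(A) sites can make mRNAs with short or long 3′ UTRs. Cleavage and polyadenylation specificity factor (CPSF) binds the AAUAAA signal upstream of the cleavage site, and CPSF1 encodes its large subunit. When a site is passed over, transcription can run on and the transcript can end at a later site beyond the annotated gene.

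PAC-seq, Poly(A)-ClickSeq, sequences the junction of a transcript with its poly(A) tail, so that each read marks an mRNA end. The libraries came from 3 human prostate cancer lines, hormone-sensitive LNCaP and hormone-insensitive LNCaP95 and 22Rv1. LNCaP95 is an LNCaP derivative and was kept in medium without phenol red. Cells of each line were transduced with lentivirus for a control shRNA (CTRL sh) or for CPSF1 sh1 or CPSF1 sh2, which both target CPSF1, then selected with puromycin and sequenced as 3 biological replicates per group. Control and knockdown cells thus shared the viral infection and the selection, and each line stands for its own cells only. The question was how CPSF1 knockdown changed the reads of these genes in the 3′ UTR, in the introns and in the 10 kb beyond the gene's end.

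The counted reads per library ranged from 3856706 to 11239076 (LNCaP), 5431900 to 9100287 (LNCaP95) and 3452413 to 12425417 (22Rv1). The members took 17.2% to 18.6%, 18.1% to 22.1% and 17.0% to 19.0% of the 3′ UTR reads of a library in LNCaP, LNCaP95 and 22Rv1. CPSF1 itself lay below every control library in all 6 knockdown libraries of each line, at 47.6%, 53.8% and 63.9% of the control mean in LNCaP, LNCaP95 and 22Rv1. All 9 luminal prostate markers, KLK3 among them, averaged above 2 CPM (reads scaled to a common library size) in the controls and in the knockdown libraries of each line. Their summed levels per library were 3148 to 10215 CPM. These sums were lower after knockdown in LNCaP (5947 to 6181 CPM in controls, 4519 to 4972 CPM after) and in LNCaP95 (9751 to 10215 and 6497 to 7561 CPM) and higher in 22Rv1 (3148 to 3293 and 3505 to 3939 CPM). Summed basal, neuroendocrine and endothelial markers reached at most 6.04, 12.9 and 3.78 CPM. The 4 stroma markers summed to 6.33 to 43.2 CPM, with COL1A2 and DCN at or below 2 CPM and COL1A1 above it in every group. LUM was above it in the 22Rv1 controls only. The 3 immune markers summed to 1.31 to 27.5 CPM, with PTPRC and CD14 at or below 2 CPM and CD68 above it in every group. In LNCaP95 the immune sum went from 4.21 to 6.47 CPM in controls to 12.0 to 27.5 CPM after knockdown. The part of these markers in the results was not tested. The LNCaP95 CPSF1 sh2 replicate 1 library stood apart from the other LNCaP95 knockdown libraries, and counts that involve the LNCaP95 knockdown are given below with and without it.

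The length in the table was the union of all annotated 3′ UTR intervals of a gene, extended by 300 bases, and not the 3′ UTR of 1 transcript. Only 911 of the 2706 members had a single unbroken interval of 5000 bases or more. The other 1795 reached 5000 bases only by adding separate intervals, whose origin was not examined. Members had a median of 6 intervals and a median length of 6841.5 bases, and their longest single interval had a median of 3739 bases. NF1, a Ras GTPase-activating protein, had the greatest length, 32770 bases in 45 intervals of which the longest was 4638 bases. KMT2C, a histone methyltransferase, reached 28616 bases in 36 intervals and DST, a cytoskeletal linker, 27976 bases in 49. Values of the unbroken members are therefore given beside some of the results below.

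**Figure D1:**
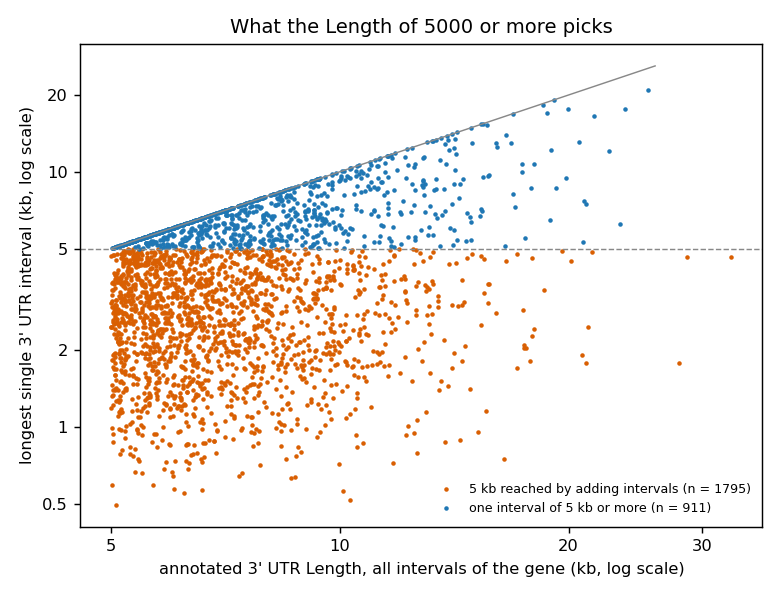
Longest single 3′ UTR interval (kb, log axis) against the summed 3′ UTR length (kb, log axis), 1 point per member; the grey diagonal marks genes with 1 interval and the dashed line 5 kb. The 911 blue members lie above the dashed line, many on the diagonal, and the 1795 orange members lie below it.

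The members differed from the comparison class in other properties as well. Their introns had a median summed length of 60653.5 bases against 19561 bases, while intron reads per kilobase were close, 30.7 against 28.0. The median member held 3324.5 3′ UTR reads and 217 reads in its 10 kb region over all libraries, and the median gene of the comparison class held 3015.5 and 222. The 10 kb region was exactly 10000 bases long in 78.5% of members and in 76.5% of the comparison class. In the rest it was shorter, cut by exons on the same strand, or longer, up to 20000 bases in both classes. It held 0 reads in 48 members, and the introns held 0 reads in 67. The 3′ UTRs of members had a median GC content of 40.6%, against 45.2% in the comparison class and 43.6% over all genes with 270 or more reads. A single interval made up the 3′ UTR in 14.2% of members and in 52.4% of the comparison class.

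The last bases of the annotated 3′ UTR are shown for 7 members that carry the results below, read from the GRCh37/hg19 genome on the gene's strand, 5′ to 3′, ending at the last base before the 300-base extension. Capitals mark the hexamers AATAAA or ATTAAA, the DNA form of the signal that CPSF binds.
RPL37: tttctttAATAAAgatattgtacaatgaaa
RPL15: tattcatctgtagAATAAAttcttagaagt
CAMK2D: attgAATAAAattctactgacttctatgaa
IGF1R: tttaagttaAATAAAataattctgtatgca
RPAP2: tactggcctAATAAAatgagttggaatgtg
HEBP2: atgtattATTAAAggtttctgatatccata
PDK1: aacatggagatatgaatgactgtgtggagc
They lie at chr5:40825364-40825393 on the minus strand (RPL37), chr3:23965154-23965183 plus (RPL15), chr4:114372188-114372217 minus (CAMK2D), chr15:99507730-99507759 plus (IGF1R), chr1:92867584-92867613 plus (RPAP2), chr6:138743305-138743334 plus (HEBP2) and chr2:173489794-173489823 plus (PDK1), all in the 3′ UTR of the named gene. Over a window of 50 bases before the annotated end, AATAAA on the gene's strand was found in 63.4% of members, in 68.7% of the unbroken members, in 61.2% of the comparison class and in 62.0% of all genes with 270 or more reads. ATTAAA without AATAAA was found in 14.3%, 13.9%, 15.4% and 14.7% of these. The annotated end is the furthest one in the annotation and need not be the end that the cells used.

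Reads beyond the gene rose relative to the 3′ UTR in part of the members after knockdown, in all 3 lines. Levels of this ratio are given as 10 kb reads per 100 3′ UTR reads. In LNCaP, the median member had 2.33 ± 0.18 such reads (SD, n = 3 control libraries, range 2.13 to 2.43) and 4.97 ± 0.78 after knockdown (SD, n = 6, range 3.82 to 6.06). In LNCaP95, the values were 1.91 ± 0.15 (1.75 to 2.03) and 8.19 ± 2.33 (5.94 to 12.5). In 22Rv1, they were 2.65 ± 0.04 (2.61 to 2.69) and 7.42 ± 0.58 (6.49 to 8.15). Every knockdown library lay above every control library of its line. The knockdown mean was 2.13, 4.28 and 2.81 times the control mean in LNCaP, LNCaP95 and 22Rv1. In the comparison class the same folds were 1.91, 4.03 and 2.55, and its knockdown libraries also lay above all its controls. For the unbroken members the folds were 2.16, 4.15 and 3.12.

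Gene by gene, with edgeR's quasi-likelihood test and Benjamini-Hochberg adjustment over all genes, the ratio rose in 194 and fell in 29 of the 2212 members tested in LNCaP, or 8.77% and 1.31%. Over all 9375 genes tested, 8.69% rose and 1.8% fell. In LNCaP95 it rose in 585 and fell in 119 of 2372 members, or 24.7% and 5.02%, against 22.8% and 6.19% of all genes. Without CPSF1 sh2 replicate 1 the LNCaP95 counts were 528 and 96 of 2360, against 21.1% and 5.21% of all genes. In 22Rv1 it rose in 184 and fell in 18 of 2355 members, or 7.81% and 0.764%, against 6.85% and 0.734% of all genes. The members' shares were thus near the background in each line. Median log2 changes were 0.43, 0.68 and 0.44 over the members and 0.33, 0.59 and 0.35 over all genes. The unbroken members had medians of 0.49, 0.76 and 0.58, with 71 of 734, 192 of 797 and 71 of 796 higher, and 172 of 789 in LNCaP95 without that library. Leaving out 1 control library could move these shares by over 1.5 times: 5.46%, 4.78% and 5.42% of members were higher in LNCaP without CTRL sh replicate 1, 2 and 3, and 3.43% in 22Rv1 without CTRL sh replicate 3.

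These counts depended on the scaling. Scaling the 10 kb table to its own reads removes any rise that most 10 kb regions share. With library sizes summed over the tables, the LNCaP median log2 change of all genes was 0.75 in place of 0.33, the LNCaP95 median 1.51 in place of 0.59 and the 22Rv1 median 0.97 in place of 0.35, and the members had 0.83, 1.59 and 1.06. The ratio was then higher in 351 and lower in 9 members in LNCaP, higher in 1179 and lower in 29 in LNCaP95, and higher in 658 and lower in 5 in 22Rv1. The corresponding shares higher were 15.9%, 49.7% and 27.9% of members and 15.4%, 46.8% and 25.3% of all genes. Among the members called, the share that was higher went from 87% to 97.5%, from 83.1% to 97.6% and from 91.1% to 99.2%.

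**Figure D2:**
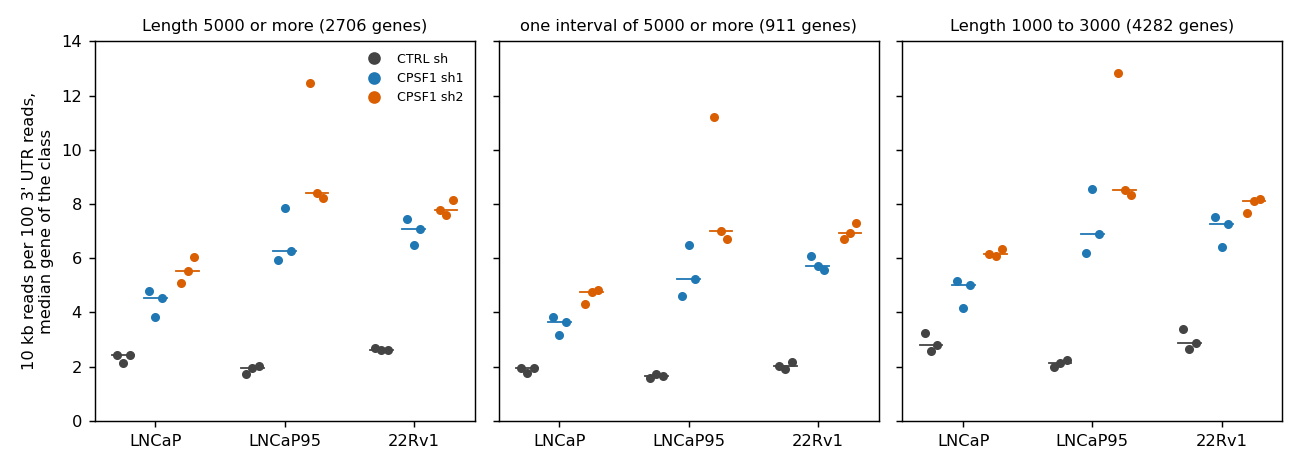
10 kb reads per 100 3′ UTR reads of the median gene, 1 point per library, by line and shRNA, for the 2706 members, the 911 unbroken members and the 4282 genes of the comparison class; short lines are medians of 3 libraries. Every knockdown library lies above the controls of its line in each panel, and the highest point is LNCaP95 CPSF1 sh2 replicate 1.

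**Figure D3:**
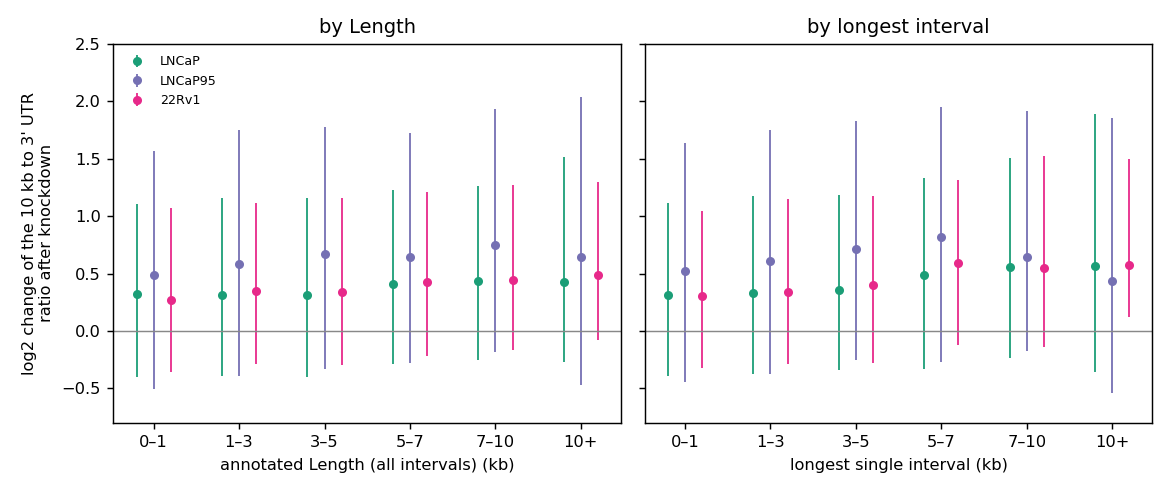
Median log2 change after knockdown in the 10 kb to 3′ UTR ratio, by line, over tested genes with 270 or more reads in bins of summed 3′ UTR length (left, kb) and of longest single interval (right, kb); bars span the quartiles. The medians are above 0 in every bin, and the quartile ranges of all bins overlap.

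The share of members called was larger at greater read depth. In LNCaP95, the ratio was higher in 6.99% of tested members with 270 to 1000 3′ UTR reads, in 19.0% with 1000 to 3000, in 27.9% with 3000 to 10000 and in 39.6% with 10000 or more. In LNCaP the share went from 2.88% to 19.3% and in 22Rv1 from 1.82% to 17.7% between the lowest and the highest of these classes. The comparison class gave 10.7%, 16.7%, 27.5% and 36.1% in LNCaP95, and went from 2.33% to 17.2% in LNCaP and from 1.79% to 13.9% in 22Rv1. Members whose 10 kb region held another annotated gene on the same strand had smaller medians than the rest. Their median log2 changes were 0.10, 0.18 and 0.17 in LNCaP, LNCaP95 and 22Rv1, against 0.63, 0.99 and 0.63 in members with none. Of the members that fell, 25 of 29, 91 of 119 and 14 of 18 had such a neighbour, as did 833 of 2212, 881 of 2372 and 870 of 2355 members tested. The part of neighbouring genes in the ratios was not tested.

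Summed over all members, the 10 kb reads came in part from 2 genes with large shares. RNF141, a ring finger protein, and PLEKHA5, a pleckstrin homology domain protein, gave the largest single shares, up to 35% for PLEKHA5 in the LNCaP CPSF1 sh2 replicate 2 library. Without both genes, the members had 5.05 to 5.32 reads per 100 3′ UTR reads in LNCaP controls and 6.42 to 8.40 after knockdown, 4.04 to 4.50 and 7.89 to 12.6 in LNCaP95, and 5.49 to 6.99 and 9.02 to 10.3 in 22Rv1. With both genes, the members had 7.66 to 8.49 and 10.8 to 16.9 in LNCaP, 5.59 to 6.68 and 9.31 to 14.9 in LNCaP95, and 7.11 to 9.07 and 10.9 to 12.0 in 22Rv1. Control and knockdown libraries did not overlap in any line, with or without both genes.

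Among the 8 members with the most 3′ UTR reads, 4 encode proteins of the large ribosomal subunit. RPL37, with an unbroken interval of 7542 bases, had 0.0931, 0.0212 and 0.0478 reads beyond the gene per 100 3′ UTR reads in the LNCaP controls, and 1.27 to 2.39 with a median of 1.82 after knockdown. The LNCaP95 controls had 0.0277, 0.0877 and 0.127 and the knockdown libraries 2.37 to 4.16 (median 3.06). The 22Rv1 controls had 0.173, 0.0352 and 0.211 and the knockdown libraries 2.01 to 4.25 (median 2.95). All 6 knockdown libraries of each line lay above all controls, and the log2 changes of the RPL37 ratio were 4.69 ± 0.41 (SE; adjusted p = 2.16e-09), 4.38 ± 0.41 (1.24e-09) and 3.75 ± 0.41 (2.24e-07) in LNCaP, LNCaP95 and 22Rv1. The RPL15 ratio had log2 changes of 3.70 ± 0.38 (SE; adjusted p = 4.73e-08), 3.74 ± 0.40 (2.04e-08) and 3.11 ± 0.42 (9.39e-06), and a later annotation (GENCODE v44 on GRCh37) carries the RPL15 gene itself into the 10 kb region. These ratios stayed small: RPL15 reached at most 1.34, 2.80 and 1.5 reads beyond the gene per 100 3′ UTR reads.

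RPL31 and RPL27A gained reads in their counted introns relative to the 3′ UTR. The study took introns as the gene without its coding exons and 3′ UTRs. For RPL27A, the annotated 3′ UTR ended at chr11:8711419 and the 10 kb region began at 8736606. Its counted introns can thus include sequence beyond that 3′ UTR, and the place of the gain was not tested. The 10 kb ratio of RPL27A was called in no line (adjusted p = 0.172, 0.124 and 0.999 by edgeR). RPL31 had 0.739, 0.451 and 0.599 intron reads per 100 3′ UTR reads in the LNCaP controls and 1.23 to 3.29 (median 1.86) after knockdown, with no overlap. Its log2 changes in this ratio were 2.08 ± 0.25 (SE; adjusted p = 6.04e-06) in LNCaP, 2.13 ± 0.36 (0.000276) in LNCaP95 and 1.05 ± 0.22 (0.03) in 22Rv1. RPL27A rose by 2.36 ± 0.28 (adjusted p = 4.55e-06) in LNCaP and by 2.35 ± 0.28 (5.64e-06) in LNCaP95, and its value in 22Rv1 was 1.10 ± 0.28 (0.0849). The 3′ UTR level of RPL31 fell by 0.37 on the log2 scale in LNCaP (adjusted p = 0.0267) and by 0.74 in LNCaP95 (0.000276), and was -0.36 in 22Rv1 (0.0993). The LNCaP call was lost without any 1 control and without CPSF1 sh1 replicate 1.

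Of the other members with most reads, GNAS, the stimulatory G protein alpha subunit, and LUC7L3, a splicing-related protein, rose in LNCaP95 by 2.70 ± 0.62 (adjusted p = 0.00112) and 2.04 (0.0247) in log2 ratio, and GNAS had 1.95 in LNCaP (0.103) and 1.06 in 22Rv1 (0.497). LUC7L3 had 0.75 in LNCaP (adjusted p = 0.321) and 0.08 in 22Rv1 (0.947), and its LNCaP95 call was lost without any 1 control and without CPSF1 sh2 replicate 2. RBM25, a splicing factor, was called in no line.

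**Figure D4:**
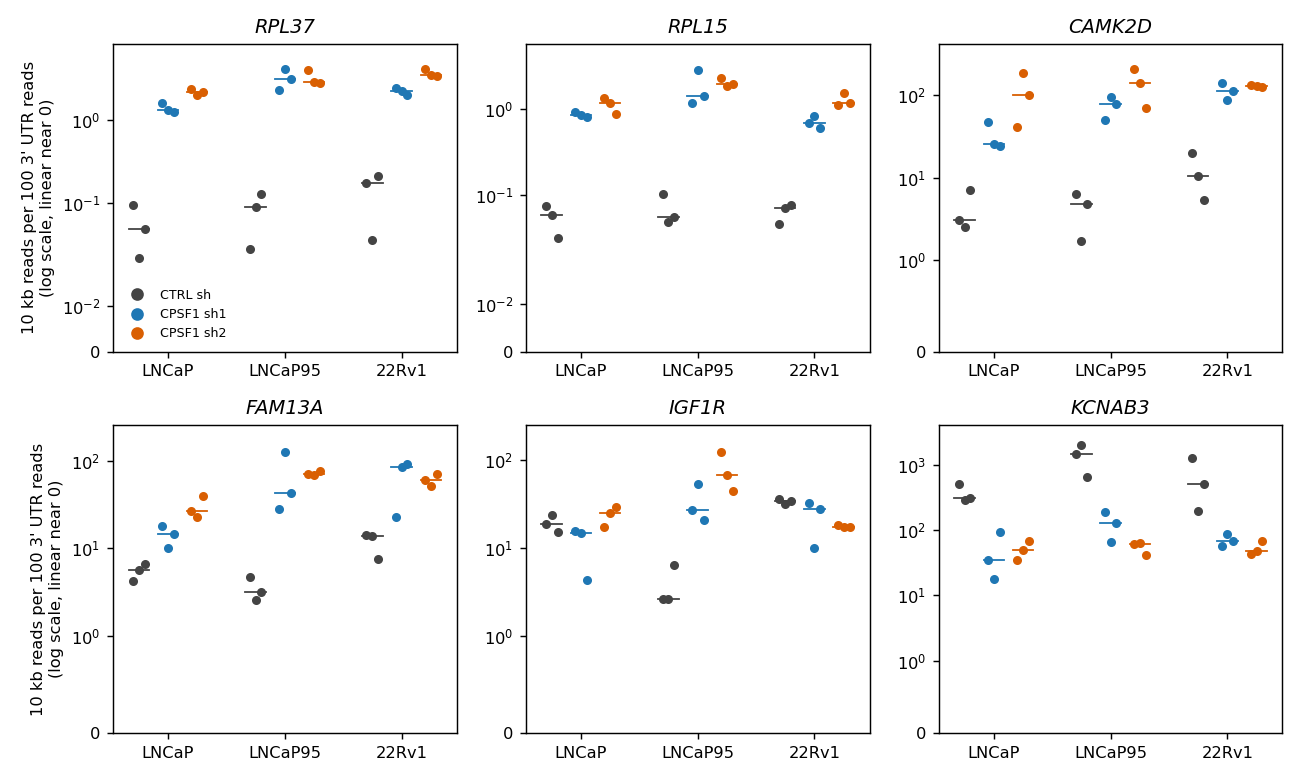
10 kb reads per 100 3′ UTR reads (log axis) in every library for named members, by line and shRNA; the axis is linear near 0, short lines are medians of 3 libraries, and each panel has its own scale. RPL37, RPL15, CAMK2D and FAM13A lie above the controls in all knockdown libraries, KCNAB3 lies below them, and IGF1R lies above them in LNCaP95.

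The members with the largest mean rise of the ratio had few or no 10 kb reads in the controls, and bounds are given with a floor of 3 reads over the group. PHF3, a PHD finger protein, had 0 control reads in every line and 46, 64 and 52 knockdown reads, at least 12.2-fold, 12.5-fold and 5.16-fold higher in ratio in LNCaP, LNCaP95 and 22Rv1. The 22Rv1 call of PHF3 (adjusted p = 0.0386) was lost without any 1 control or CPSF1 sh2 library. HEBP2, a heme-binding protein with an unbroken interval of 9618 bases, was at least 12.6-fold higher in LNCaP, and its ratio in LNCaP95, with 1 control read against 57, was 57.3-fold higher with an interval of 9.88 to 2302. ZNF720, a zinc finger protein, had 1 control read against 40 knockdown reads in LNCaP, a ratio of 25.2 (95% interval 4.27 to 1020), and was at least 10.6-fold higher in LNCaP95. Its LNCaP call was lost without CTRL sh replicate 1 or 2, and in 22Rv1, with a bound of 3.19-fold, ZNF720 did not pass the test (adjusted p = 0.0844). UQCRB, a subunit of respiratory complex III, was at least 8.82-fold higher in LNCaP and 5.14-fold in 22Rv1, and 18.3-fold higher in LNCaP95 (5.98 to 90.8). The later annotation carries the UQCRB gene itself into its 10 kb region. MED17, a Mediator subunit, was at least 12.5-fold higher in LNCaP95 and 8.07-fold in 22Rv1, and did not pass the test in LNCaP at 4.17-fold on 5 against 50 reads. The 22Rv1 calls of UQCRB and MED17 were lost without CTRL sh replicate 2 or 3. These intervals and bounds cover counting error alone.

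HEBP2 fell in its 3′ UTR in all 3 lines. Its controls had 415, 385 and 398 CPM in LNCaP, 325, 381 and 391 CPM in LNCaP95 and 659, 735 and 730 CPM in 22Rv1. The knockdown libraries had 207 to 269 CPM, 184 to 266 CPM and 470 to 578 CPM, all below the controls of their line. The 3′ UTR level of HEBP2 fell by 0.86, 0.88 and 0.54 on the log2 scale (adjusted p = 2.71e-05, 9.44e-05 and 0.0207).

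The 5 members whose ratio fell most rose in the 3′ UTR in at least 2 lines. The 3′ UTR reads are the denominator of this ratio, so the rise and the fall are not separate results. KCNAB3, a potassium channel beta subunit, had 514, 289 and 318 reads beyond the gene per 100 3′ UTR reads in the LNCaP controls and 17.9 to 93.1 (median 42.6) after knockdown, without overlap. The log2 changes of the KCNAB3 ratio were -3.37 ± 0.56 (SE; adjusted p = 7.82e-05), -4.74 ± 0.51 (1.96e-08) and -3.41 ± 0.53 (5.77e-05). Its 3′ UTR level rose by 2.12, 2.30 and 2.19 on the log2 scale (adjusted p = 0.000958, 0.000104 and 0.00429), from 1.76, 1.78 and 2.47 CPM to 4.58 to 12.8 CPM in LNCaP. CDKL3, a cyclin-dependent kinase-like protein, had log2 ratio changes of -2.37, -3.35 and -1.99, all called, with 3′ UTR rises of 1.18, 1.98 and 1.42. BAIAP2, an adaptor of membrane and actin, fell in ratio by 2.20 in LNCaP and by 2.05 in LNCaP95 (lost without CTRL sh replicate 3), and had -1.74 ± 0.60 in 22Rv1 (adjusted p = 0.0693). BCO2, a carotenoid-cleaving enzyme, held 3, 0 and 4 3′ UTR reads in the LNCaP, LNCaP95 and 22Rv1 controls and 71, 121 and 152 after knockdown. Control reads of BCO2 and KCNAB3 lay below the minimum of 270, so both passed it only through their knockdown libraries. The later annotation places RNF227 in the 10 kb region of KCNAB3, PPP2CA in that of CDKL3, PTS in that of BCO2, MIR338 in that of BAIAP2 and HSD17B7 in that of DDR2, on the same strand, and the part of their own transcripts was not tested.

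At the level of the 3′ UTR itself, the members moved in both directions. In LNCaP, 181 rose and 242 fell of 2572 members, or 7.04% and 9.41%, against 8.18% and 10.1% of all genes tested. In LNCaP95, 452 rose and 358 fell of 2597, or 17.4% and 13.8%, against 14.8% and 15.6%, and without CPSF1 sh2 replicate 1 the counts were 421 and 338 of 2596. In 22Rv1, 21 rose and 9 fell of 2618, against 0.687% and 0.783% of all genes. Among the 868 unbroken members tested in LNCaP95, 188 rose and 106 fell, or 21.7% and 12.2% (175 and 99 of 867 without that library), and in the comparison class 14.3% rose and 16.9% fell. With summed library sizes the direction in LNCaP95 turned, with 310 members higher and 452 lower, and so did that in 22Rv1, with 18 higher and 31 lower. Without CTRL sh replicate 1, 2 and 3 in turn, 4.20%, 4.48% and 3.90% of members rose in LNCaP, and 5.17% and 5.85% fell without replicate 1 and 3. Without CTRL sh replicate 1, 10.6% rose in LNCaP95, and 1.64% rose and 1.03% fell in 22Rv1. A PAC-seq count is a share of its library, so fewer transcripts of a gene cannot be told apart from more RNA of other genes, nor fewer cells making it from less RNA per cell.

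DDR2, a collagen receptor tyrosine kinase with an unbroken interval of 7454 bases, rose in the 3′ UTR in all lines. Its LNCaP95 controls had 2.03, 3.54 and 8.85 CPM and the knockdown libraries 40.6 to 113 CPM (median 66.7). In LNCaP the controls had 15.1, 4.56 and 8.75 CPM and the knockdown libraries 16.0 to 34.5 CPM, and in 22Rv1 1.16, 0.901 and 0.410 CPM and 3.03 to 10.4 CPM. No knockdown library of DDR2 overlapped the controls of its line, and the log2 changes were 1.12 ± 0.33 (SE; adjusted p = 0.0245), 3.69 ± 0.41 (3.38e-06) and 3.21 ± 0.58 (0.00911) in LNCaP, LNCaP95 and 22Rv1. MOBP, a myelin protein gene, had 0 control reads in LNCaP and in 22Rv1 and 3 in LNCaP95, and 225, 204 and 173 reads after knockdown, at least 41.5-fold and 22.0-fold higher in LNCaP and 22Rv1 and 35.2-fold higher in LNCaP95 (95% interval 11.8 to 172). AVIL, an actin-binding protein of the villin family, rose by 2.48, 1.27 and 4.49 on the log2 scale. The AVIL controls held 8, 59 and 2 reads in LNCaP, LNCaP95 and 22Rv1. Control reads of DDR2, MOBP and AVIL lay below the minimum of 270, so these genes passed it only through their knockdown libraries. Without CTRL sh replicate 2 or 3 the calls of DDR2 in LNCaP and 22Rv1 and of MOBP in 22Rv1 were lost, and without CTRL sh replicate 1 or 2 that of AVIL in LNCaP95.

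Of members with a lower 3′ UTR in all lines and at least 2 calls, PDK1 and PFKFB4 had among the largest mean falls. Both are enzymes of glucose metabolism, a group whose share was not counted. PDK1, the mitochondrial kinase that switches off pyruvate dehydrogenase, has an unbroken interval of 13000 bases. Its controls had 26.4, 46.2 and 36.8 CPM in LNCaP, 88.1, 105 and 70.6 CPM in LNCaP95 and 8.11, 14.1 and 8.61 CPM in 22Rv1. After knockdown PDK1 had 9.47 to 21.3, 27 to 60.5 and 2.51 to 7.16 CPM, below all controls in each line. Its 3′ UTR level fell by 1.44 ± 0.22, 1.47 ± 0.20 and 1.54 ± 0.34 on the log2 scale (SE; adjusted p = 0.000149, 3.06e-05 and 0.0281), and the 22Rv1 call was lost without CTRL sh replicate 2 or 3, any 1 CPSF1 sh2 library or CPSF1 sh1 replicate 3. The PDK1 ratio rose by 2.07 in LNCaP (adjusted p = 0.00551) and by 2.53 in LNCaP95 (5.61e-06) and was 1.52 in 22Rv1 (0.0783). PFKFB4, which makes and degrades fructose 2,6-bisphosphate, fell by 1.91 in LNCaP and by 1.94 in LNCaP95 (adjusted p = 4.52e-06 and 3.76e-06), with -0.48 in 22Rv1 (0.365). No change in the PFKFB4 ratio passed the test, at -0.34, 0.53 and 0.17.

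CAMK2D, a calcium and calmodulin-dependent kinase, lost 3′ UTR reads and gained reads in the 10 kb region in every line. The later annotation carries the CAMK2D gene itself into that region. Per 100 3′ UTR reads, the CAMK2D controls had 3.08, 2.53 and 7.14 reads in the 10 kb region in LNCaP. The LNCaP95 controls had 6.35, 1.69 and 4.76 and the 22Rv1 controls 20, 10.6 and 5.31. After knockdown they had 24.0 to 186 (median 44.1), 50 to 209 (87) and 88.6 to 140 (126). In some libraries more CAMK2D reads thus lay in the 10 kb region than in the counted 3′ UTR. The log2 changes of the CAMK2D ratio were 3.19 ± 0.75, 3.52 ± 0.70 and 2.98 ± 0.35 (SE; adjusted p = 0.00409, 0.000255 and 9.69e-07). Its 3′ UTR level fell by 1.28, 1.67 and 1.10 on the log2 scale (adjusted p = 0.00479, 0.000531 and 0.00234). FAM13A fell in the 3′ UTR by 1.01 in LNCaP and by 2.09 in LNCaP95 and had -0.45 in 22Rv1 (0.393), and its ratio rose by 1.45, 3.21 and 1.75, all called.

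**Figure D5:**
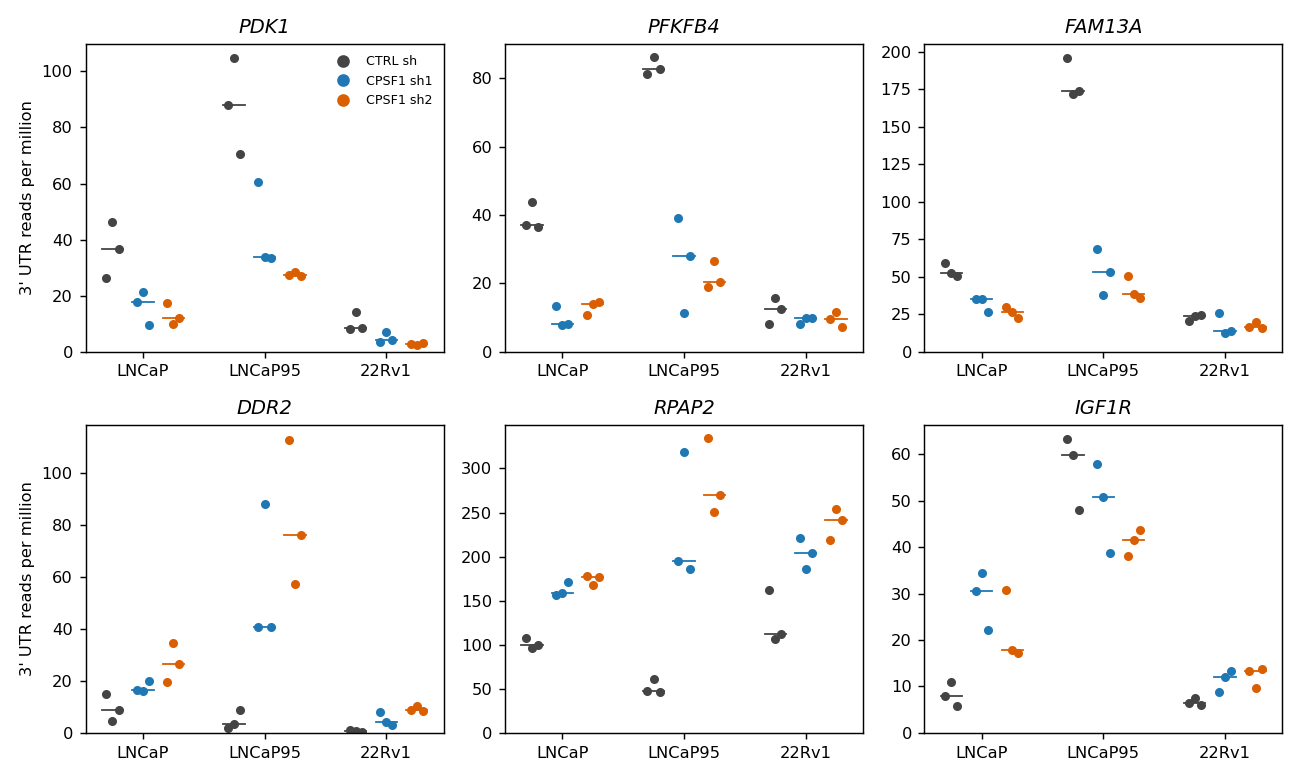
3′ UTR level (CPM, linear axis from 0) in every library for 6 named members, by line and shRNA; short lines are medians of 3 libraries and each panel has its own scale. PDK1 is lower and DDR2 and RPAP2 are higher in all knockdown libraries of each line, and IGF1R is higher in LNCaP and 22Rv1.

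The intron ratio changed in fewer members than the 10 kb ratio. The ratio of intron to 3′ UTR reads rose in 49 and fell in 27 of 2411 members in LNCaP, against 2.34% and 1.32% of all genes. It rose in 115 and fell in 226 of 2443 in LNCaP95, against 5.23% and 8.72%, and without CPSF1 sh2 replicate 1 the counts were 98 and 193 of 2446. In 22Rv1 it rose in 4 and fell in 3 of 2455, against 0.357% and 0.0649%. The intron ratio of the unbroken members rose in 11 and fell in 12 of 803 in LNCaP, and in 1 each of 822 in 22Rv1. In LNCaP95 it rose in 35 and fell in 102 of 818 unbroken members (30 and 87 of 817 without that library). The share that fell there was 12.5%, against 9.25% of all members. Without CTRL sh replicate 2 the LNCaP shares were 0.998% higher and 0.0416% lower, and without CTRL sh replicate 1 the LNCaP95 shares were 2.95% and 4.75%. Summed over members, introns held 62.1 to 62.9 reads per 100 3′ UTR reads in the LNCaP controls and 42.2 to 60.5 after knockdown, while control and knockdown libraries overlapped in LNCaP95 (48.0 to 50.9 and 42.0 to 68.8) and in 22Rv1 (45.3 to 75.5 and 59.5 to 68.9). For the unbroken members the LNCaP sums overlapped too, at 58.6 to 61.9 in controls and 41.7 to 60.2 after knockdown. Over all members, summed library sizes gave 24 higher and 106 lower in LNCaP, so that the direction turned there, 73 higher and 121 lower in LNCaP95, and for 22Rv1 9 higher and 0 lower.

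The 10 kb and intron reads were also tested within their own tables, without regard to the 3′ UTR. Of the 10 kb counts, 277 members rose and 88 fell of 2275 in LNCaP, or 12.2% and 3.87%, against 9.78% and 4.8% of all 13441 genes tested and 12.5% and 4.54% of the comparison class. In LNCaP95, 654 rose and 165 fell of 2433, or 26.9% and 6.78%, against 18.4% and 9.39% of all genes and 23.8% and 8.76% of the comparison class. Without CPSF1 sh2 replicate 1 the LNCaP95 counts were 602 and 154 of 2420, against 17.2% and 8.57% of all genes. In 22Rv1, 276 rose and 46 fell of 2403, or 11.5% and 1.91%, against 7.49% and 2.5% of all genes and 9.38% and 2.78% of the comparison class. All genes here included those with few 3′ UTR reads, which the members' read minimum removes. Of the intron counts, 143 members rose and 237 fell of 2507 in LNCaP, against 8.44% and 5.95% of all genes. In LNCaP95 269 rose and 342 fell of 2530 (231 and 308 of 2534 without that library), against 12.9% and 11%, and in 22Rv1 52 rose and 46 fell of 2523, against 2.78% and 1.6%. With summed library sizes, the members that rose and fell in 10 kb counts were 485 and 15 in LNCaP, against 1197 and 20 for LNCaP95 and 656 and 8 for 22Rv1, while intron counts gave 66 and 598, 164 and 328, and 61 and 3.

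TRIM59, a membrane-bound tripartite motif protein with a single interval of 5827 bases, rose most in the intron ratio. It had 4.29, 0.559 and 3.07 intron reads per 100 3′ UTR reads in the LNCaP95 controls and 46.9 to 157 (median 76.5) after knockdown. Knockdown libraries lay above all controls in each line, with TRIM59 log2 changes of 3.09 ± 0.62 (SE; adjusted p = 0.00329), 4.86 ± 0.43 (1.47e-07) and 3.67 ± 0.37 (9.42e-06). RPAP2, a phosphatase of the RNA polymerase II tail with a single interval of 15345 bases, moved the other way: 120, 103 and 117 intron reads per 100 3′ UTR reads in the LNCaP95 controls became 17.8 to 31.1 (median 27.2). The RPAP2 intron ratio fell by 0.79 in LNCaP (adjusted p = 0.0159, lost without any 1 control library) and by 2.19 in LNCaP95 (8.64e-07), with -0.62 in 22Rv1 (0.218). The 3′ UTR level of RPAP2 rose by 0.63, 2.18 and 0.73 on the log2 scale (adjusted p = 0.00237, 4.94e-07 and 0.0329). The 3′ UTR reads are the denominator here too, so the rise and the fall of RPAP2 are not separate results. MBD5, a methyl-CpG-binding domain protein, fell in the intron ratio by 1.32 in LNCaP (adjusted p = 0.0315) and by 3.69 in LNCaP95 (0.000149), on 3′ UTR levels of at most 2.97 and 0.370 CPM in the controls, and had -0.12 in 22Rv1 (0.961). The LNCaP call of MBD5 was lost without any 1 control, without CPSF1 sh1 replicate 1 and without CPSF1 sh2 replicate 1 or 3. Control 3′ UTR reads of MBD5 also lay below the minimum of 270, so it passed only through its knockdown libraries.

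IGF1R, the receptor of insulin-like growth factor 1, with an unbroken interval of 7388 bases, differed between the lines. Its LNCaP controls had 8.05, 10.9 and 5.83 CPM in the 3′ UTR and the knockdown libraries 17.2 to 34.4 CPM, all higher. In LNCaP95 the controls had 63.4, 59.8 and 48.0 CPM and the knockdown libraries 38.1 to 58.0 CPM, which overlap. The log2 changes of the IGF1R 3′ UTR were 1.49 ± 0.25 (SE; adjusted p = 0.000389) in LNCaP, -0.49 ± 0.16 (0.0237) in LNCaP95 and 0.77 ± 0.24 (0.131) in 22Rv1. Its LNCaP95 call was lost without CTRL sh replicate 1 or 2 or CPSF1 sh2 replicate 2. Its 10 kb ratio went from 2.62, 2.59 and 6.44 reads per 100 3′ UTR reads to 20.7 to 126 in LNCaP95, a log2 rise of 2.76 ± 0.44 (adjusted p = 1.45e-05), and was -0.76 ± 0.59 (0.458) in LNCaP and -1.40 ± 0.59 (0.148) in 22Rv1. The change of the IGF1R ratio in LNCaP95 exceeded that in LNCaP by 3.52 ± 0.74 (adjusted p = 0.00844) and that in 22Rv1 by 4.11 ± 0.72 (0.000604). Without LNCaP95 CPSF1 sh2 replicate 1, the difference of LNCaP95 minus LNCaP was 3.38 ± 0.73 (0.0162) and that of 22Rv1 minus LNCaP95 -3.93 ± 0.72 (0.00127). Over all members, the change of the ratio was higher in LNCaP95 than in LNCaP in 11 and lower in 4 of 2363 (8 and 4 of 2347 without that library), against 0.419% and 0.27% of all genes, and differed between 22Rv1 and LNCaP in 1 each way of 2380, against 0.0592% and 0.0395%. It was higher in 22Rv1 than in LNCaP95 in 18 and lower in 43 of 2458 (16 and 38 of 2446 without it), against 1.03% and 1.45%. The lines' controls and knockdown libraries enter more than 1 of these comparisons.

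Among controls, the lines differed in the 3′ UTR levels of many members. Of 2577 members, 518 were higher and 621 lower in LNCaP95 than in LNCaP, against 23.7% and 23.0% of all genes. Of 2656 members, 585 were higher and 576 lower in 22Rv1 than in LNCaP, against 23.7% and 22.2%. Both comparisons used the same LNCaP controls, and with summed library sizes the direction of the first turned, to 634 higher and 506 lower. The 10 kb ratio differed in few members: 24 were higher and 21 lower of 2116 in LNCaP95, against 1.54% and 1.29%, and 97 and 83 of 2166 in 22Rv1, against 4.47% and 4.05%. The intron ratio was higher in 136 and lower in 104 of 2422 in LNCaP95, against 5.48% and 4.42%, and higher in 77 and lower in 128 of 2478 in 22Rv1, against 3.73% and 5.46%. With summed library sizes the intron ratio was higher in 2.93% and lower in 6.65% of members in LNCaP95, which turned its direction, and in 1.21% and 2.38% in 22Rv1.

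Single members separated the lines. Those named here were picked as extremes of the same comparisons of controls, so their folds are not a separate test. The read minimum was taken over all libraries, so a gene could pass it through the line in which it was high. Control reads of A1CF were 0, 1 and 400 in LNCaP, LNCaP95 and 22Rv1. Those of SLC35D1 were 0, 4 and 274, and those of NPR3 1, 299 and 29. LOX, the enzyme that crosslinks collagen, had 101, 120 and 89.9 CPM in the LNCaP95 controls and 1.26, 0 and 0.449 CPM in the LNCaP controls, a 199-fold difference. After knockdown LOX had 11.7 to 47.7 CPM in LNCaP95, below all controls, and fell by 2.29 ± 0.27 on the log2 scale (SE; adjusted p = 6.04e-06). MMP16, a membrane-bound matrix metalloproteinase, had 103, 118 and 110 CPM in the LNCaP controls and at most 0.206 CPM in the LNCaP95 controls, and it fell by 1.39 in LNCaP after knockdown (adjusted p = 3.22e-06). NPR3, the natriuretic peptide clearance receptor, was 272-fold higher in LNCaP95 than in LNCaP controls on 1 LNCaP read, and SLC16A7, a monocarboxylate transporter, was at least 134-fold lower. A1CF, an RNA-editing cofactor, had 56.2, 29.4 and 42.0 CPM in the 22Rv1 controls and 0 reads in the LNCaP controls, at least 181-fold higher. SLC35D1, a nucleotide sugar transporter, was at least 124-fold higher in 22Rv1, while PDE10A, a cyclic nucleotide phosphodiesterase, was at least 74.0-fold lower and C1RL, a complement C1r-like protease, 182-fold lower.

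Across lines, 208 of the 2075 members tested in all 3 had a higher 10 kb ratio with the same sign in every line and a call in at least 2, and 16 had a lower one, or 10.0% and 0.771%, against 9.66% and 1.0% of all genes. For the 3′ UTR level these counts were 71 higher and 68 lower of 2464, or 2.88% and 2.76%, against 2.99% and 3.75% of all genes. For the intron ratio they were 26 and 11 of 2294, or 1.13% and 0.48%, against 1.51% and 0.56%. The members' shares were thus at or below the background for each measure except the 10 kb rise, which was near it. Without LNCaP95 CPSF1 sh2 replicate 1, the counts were 201 and 15, 66 and 67, and 26 and 12. Of the 3 members with the greatest lengths, NF1 passed the test of the 10 kb ratio in LNCaP95, higher by 1.35 ± 0.50 (SE, adjusted p = 0.0389). This NF1 call was lost without CTRL sh replicate 2 or 3, any 1 CPSF1 sh2 library or CPSF1 sh1 replicate 3. KMT2C was called in this ratio in no line. The DST ratio was not tested in LNCaP and was not called in the other lines. The 3′ UTR level of DST rose in LNCaP95 by 0.59 ± 0.19 (SE, adjusted p = 0.0252), a call lost without CTRL sh replicate 1 or 2.

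Gene groups in which long 3′ UTRs are common were counted next, and the genes named were picked after their values were seen, as those called the same way in all lines for the ratio and in at least 2 lines for the 3′ UTR. Beside the counts of each group stand the shares over all genes tested for the 10 kb ratio, 8.69%, 22.8% and 6.85% higher and 1.8%, 6.19% and 0.734% lower in LNCaP, LNCaP95 and 22Rv1, and for the 3′ UTR, 8.18%, 14.8% and 0.687% higher and 10.1%, 15.6% and 0.783% lower. No group was tested against all genes. Of 50 symbols of mRNA repression and 3′ UTR binding, 23 were members. Their 10 kb ratio rose in 1 of 20, 8 of 23 and 3 of 23 tested in LNCaP, LNCaP95 and 22Rv1 and fell in none, with medians of 0.63, 1.19 and 0.52, against 0.33, 0.59 and 0.35 over all genes. The LNCaP95 count without CPSF1 sh2 replicate 1 was 6 of 23. AGO3, an Argonaute protein of the microRNA pathway with a length of 18721 bases, rose by 2.11, 2.35 and 2.89. Of these 23 members, 0 of 23 rose in the 3′ UTR in LNCaP and 2 fell, 3 rose and 5 fell in LNCaP95, and none was called by edgeR in 22Rv1, where 2 were higher and 0 lower at an unadjusted p under 0.05.

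Among 6 polyadenylation factors with long 3′ UTRs, 0 of those tested were called in the 10 kb ratio in any line by edgeR, with 1, 1 and 0 at an unadjusted p under 0.05. FIP1L1 was not tested in this ratio in any line, nor PAPOLG in LNCaP. WDR33, the CPSF subunit that contacts the AAUAAA signal, rose in the 3′ UTR in LNCaP and LNCaP95. It had 16.1, 29.9 and 33.8 CPM in the LNCaP95 controls and 60.1 to 76.0 CPM after knockdown, and the log2 changes of WDR33 were 0.57 ± 0.14 (SE; adjusted p = 0.00726), 1.28 ± 0.19 (6.23e-05) and 0.37 ± 0.15 (0.254). The LNCaP call was lost without CTRL sh replicate 2. The WDR33 intron ratio fell by 0.90 in LNCaP (adjusted p = 0.0202) and by 1.80 in LNCaP95 (4.19e-05). That ratio has the 3′ UTR reads as its denominator, so its fall is not separate from the 3′ UTR rise. The 3′ UTR levels of CPSF6, FIP1L1, SYMPK, PAPOLA and PAPOLG passed the test in no line.

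Of 21 chromatin regulators, 3 of 19, 8 of 20 and 3 of 19 rose in the 10 kb ratio and 0, 1 and 1 fell, with medians of 0.91, 0.92 and 0.05 against the 0.33, 0.59 and 0.35 of all genes. TET3, a methylcytosine dioxygenase, rose by 2.73, 3.03 and 2.23 and CBX5, heterochromatin protein 1 alpha, by 1.89, 1.52 and 2.65. In the 3′ UTR, 0 of 21 rose and 3 fell in LNCaP, 2 rose and 4 fell in LNCaP95 and 0 were called in 22Rv1, where edgeR's unadjusted p was under 0.05 for 2 higher and 0 lower. KDM5A and JMJD1C, of the histone demethylase families, were among those lower in LNCaP and in LNCaP95. Of 20 growth factor and hormone receptors, the ratio rose in 2 of 15, 5 of 17 and 2 of 17 and fell in none, with medians of 0.37, 0.00 and 0.54. Their 3′ UTR level rose in 2 and fell in 7 of 19 in LNCaP, rose in 3 and fell in 6 in LNCaP95, and rose in 1 in 22Rv1, with medians of -0.13, -0.40 and 0.18 against 0.01, 0.00 and 0.00 over all genes. EGFR, the epidermal growth factor receptor, fell by 1.37 and 1.27 on the log2 scale in LNCaP and LNCaP95 and had 0.49 in 22Rv1, ERBB2 fell by 1.15 and 0.50, ERBB3 by 0.76 and 0.61, and INSR, the insulin receptor, by 0.63 and 0.69.

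Of 19 ubiquitin ligases and relatives, the ratio rose in 1 of 16, 7 of 19 and 5 of 19 and fell in none, with medians of 0.89, 1.00 and 0.59. The LNCaP95 count without CPSF1 sh2 replicate 1 was 6. KLHL42, a substrate adaptor of cullin 3, rose in all lines, by 2.82 in LNCaP95 and by 3.03 in 22Rv1 on the log2 scale. MDM2, the ligase of p53, rose in the 3′ UTR by 1.03 in LNCaP and by 0.44 in LNCaP95, and its relative MDM4 fell by 0.55 and 0.45. Of 58 solute carriers, 6 of 54, 11 of 53 and 6 of 50 rose in ratio and 0, 2 and 0 fell, with medians of 0.21, 0.61 and 0.50, so that their shares higher lay near those of all genes in LNCaP and LNCaP95. SLC7A1, a cationic amino acid transporter, rose by 3.54, 3.56 and 3.14, and SLC25A40, a mitochondrial carrier, by 3.84, 2.60 and 1.92. SLC11A2, an iron transporter, fell in the 3′ UTR in all lines, by 0.53, 0.62 and 0.64. Of 91 zinc finger proteins, 10 of 79, 12 of 81 and 2 of 80 rose in ratio and 0, 7 and 0 fell, and ZNF24 rose by 3.86, 2.64 and 2.59. Their median log2 changes of the ratio were 0.20, 0.16 and 0.22, against 0.33, 0.59 and 0.35 over all genes. Without LNCaP95 CPSF1 sh2 replicate 1, 1 solute carrier fell in place of 2, the zinc finger proteins gave 11 higher and 6 lower, and the counts of chromatin regulators and receptors stayed at 8 and 1 and at 5 and 0. The 3′ UTR counts of the groups of mRNA repression, chromatin and receptors in LNCaP95 were also the same.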

How the data were processed

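The values were raw counts of reads, which the authors deposited in 4 tables by region: 3′ UTRs, introns, coding exons and the 10 kb beyond the gene. Per the labels, they mapped reads with HISAT2 2.1.0 to GRCh37 and counted them with featureCounts of Subread 2.0.3. Their methods add that the poly(A) stretch was trimmed, that a read was counted on its strand by its last base, and that 3′ UTRs came from Ensembl GRCh37 and were extended by 300 bases. A read can thus come from internal priming, and a 10 kb region can hold a neighbour's ends.

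All 27 libraries entered, with groups from their titles and 0 columns unmatched. Counts were tested in R 4.3.3 with the edgeR 4.0.16 quasi-likelihood F-test (3 control against 6 knockdown libraries per line; controls of 2 lines; region-by-knockdown term for ratios). Library sizes and TMM factors were taken per table, a mean above 2 CPM was required, and p-values were adjusted by Benjamini-Hochberg over all genes, with a threshold of 0.05. The fits were tested on simulated data. Alternatives included DESeq2 1.42.0, other filters, summed library sizes, each shRNA alone, other length rules and leaving out each library. After the data were seen, fits without 1 LNCaP95 library were added for the 10 kb and intron tables and the differences between lines. Members, gene lists and tests were chosen with earlier results of these data known.

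Named genes were members only: the 8 with most 3′ UTR reads, the extremes of the ratio, 3′ UTR and intron changes with 1 sign in all lines and a call in at least 2, the extremes between control lines, the 3 greatest lengths, genes at the length limit, and IGF1R, INSR and the polyadenylation factors. Named genes include 1 that is not reported here. Examples of other gene groups, and RNF141 and PLEKHA5, were chosen after their values were seen. Sequences were read from the GRCh37 genome, and gene neighbours from GENCODE v44 on GRCh37, in which 93.9% of member symbols matched. In that annotation, 11.8% of the matched members and 14.0% of the matched comparison class reached into their own 10 kb region.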

Additional observations from a re-analysis of the deposited data

Results flagged for a closer look

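In LNCaP95, 1 knockdown library, CPSF1 sh2 replicate 1, stood apart from the other 5 by Dixon's test at the 95% level. For all members, it held 68.8 intron reads per 100 3′ UTR reads as a sum and 75 for the median gene. For the unbroken members, the sum was 72.0 and the median 73.6, and the median of 10 kb reads per 100 3′ UTR reads was 11.2. In all, 24 values were examined in this way, of which chance alone gives about 1 in 20. The 5 values share 1 library and overlapping genes. Counts of members with and without this library stand beside the results. Of 37 calls of named members in LNCaP95, 1 was lost without it, that of the NF1 ratio.

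The knockdown change of the IGF1R ratio of 10 kb to 3′ UTR reads differed between lines. It was 3.52 higher on the log2 scale in LNCaP95 than in LNCaP (adjusted p = 0.00844, edgeR), and the difference of 22Rv1 minus LNCaP95 was -4.11 (adjusted p = 0.000604).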

How the results depend on the processing

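Values here are percentages of tested members called higher or lower, and those that moved by over 1.5 times are given. No called value changed sign. With summed library sizes, the 10 kb ratio gave 15.9% higher and 0.407% lower in LNCaP, with 49.7% and 1.22% for LNCaP95, and 27.9% and 0.212% for 22Rv1. The intron ratio gave 0.995% and 4.40%, 2.99% and 4.95%, and 0.367% and 0%, the last with edgeR and with 4.40% turning the direction in LNCaP. The 3′ UTR gave 1.18% lower in 22Rv1. Between controls, the 10 kb ratio was higher in 0.331% in LNCaP95 and lower in 2.35% in 22Rv1, and the intron ratio gave 2.93% and 6.65% in LNCaP95 and 1.21% and 2.38% in 22Rv1. With genes above 2 CPM in every library, which tests fewer genes, the 10 kb ratio gave 14.5% higher and 3.93% lower in LNCaP, 9.02% lower in LNCaP95 and 1.60% lower in 22Rv1. In 22Rv1 the 3′ UTR then gave 0.531% higher and the intron ratio 0.318% and 0.227%. Between controls the 10 kb ratio gave 4.12% and 4.54% in LNCaP95 and 7.20% higher in 22Rv1.

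With CPSF1 sh1 alone, 5.16% had a higher 10 kb ratio and 1.83% a lower intron ratio in LNCaP. In LNCaP95 the 3′ UTR gave 8.14% and 6.86%, the 10 kb ratio 13.0% and 2.30% and the intron ratio 1.73% and 2.26%. In 22Rv1 the 3′ UTR gave 0% and 0% by edgeR, with 102 higher and 60 lower at an unadjusted p under 0.05, the 10 kb ratio 2.62% and 0.175%, and the intron ratio 0.0410% and 0%, with 58 and 72 at an unadjusted p under 0.05. With CPSF1 sh2 alone, the 3′ UTR gave 3.59% and 5.19% and the intron ratio 1.29% and 0.167% in LNCaP, the intron ratio 6.08% lower in LNCaP95, and the 3′ UTR 0.534% and the intron ratio 0.0407% lower in 22Rv1. These fits hold fewer libraries. Over members with a 10 kb region of exactly 10000 bases, the 10 kb ratio was lower in 0.571%, 2.76% and 0.374% in LNCaP, LNCaP95 and 22Rv1. In 22Rv1, DESeq2 gave 1.80% and 1.11% for the 3′ UTR, members with an unbroken interval of 5000 bases 0.567% lower in the 3′ UTR, a length of 4000 or more 0.341% higher in the intron ratio, and no filter on low counts 0.228% lower. Apart from fewer genes or libraries, the cause was not tested.

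Leaving out 1 library at a time gave 3.90% to 9.61% higher and 5.17% to 11.5% lower for the 3′ UTR in LNCaP, 4.78% to 9.24% and 0.812% to 1.58% for the 10 kb ratio, and 0.998% to 2.33% and 0.0416% to 1.70% for the intron ratio. In LNCaP95 it gave 10.6% to 18.9% higher for the 3′ UTR, the lowest without CTRL sh replicate 1, and 2.95% to 4.91% and 4.75% to 9.85% for the intron ratio, both lowest without the same control. In 22Rv1 it gave 0.344% to 1.64% and 0.115% to 1.03% for the 3′ UTR, 3.43% to 8.39% and 0.339% to 1.35% for the 10 kb ratio, and 0.0407% to 0.448% and 0% to 0.570% for the intron ratio. In LNCaP each of the lowest values arose without 1 of the 3 controls. In 22Rv1 the lowest 3′ UTR and 10 kb ratio values arose without CTRL sh replicate 3 and the highest lower shares without CTRL sh replicate 1. Between controls, the 10 kb ratio gave 0.380% to 1.39% and 0.333% to 0.911% in LNCaP95 and 1.79% to 5.57% and 1.61% to 3.45% in 22Rv1, and the intron ratio 2.07% to 5.02% and 1.53% to 3.82% in LNCaP95 and 1.58% to 5.24% and 2.46% to 8.31% in 22Rv1. With 2 controls left, the fit has fewer libraries.

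Replicate numbers are shared by the groups. Deviations of same-numbered libraries from their group means had correlations of -0.22 to 0.14 (LNCaP), -0.20 to 0.17 (LNCaP95) and -0.15 to 0.38 (22Rv1), with 3 of 9 correlations over 0.1 in each line, so the numbers were not treated as pairs. In 22Rv1 these were the 3 pairs of CTRL sh with CPSF1 sh1 (0.38, 0.24 and 0.10), of which 4 of 6 libraries correlated best with their own number, while CTRL sh and CPSF1 sh2 had -0.15 to 0.01. With CPSF1 sh1 alone and the replicate block, a fit chosen after seeing the data, the 22Rv1 10 kb ratio was higher in 3.93% and lower in 0.393% of members, the 3′ UTR in 0.767% and 0.268% and the intron ratio in 0.0410% and 0.082%. With the replicate block, 0.705% of members had a lower intron ratio in LNCaP in place of 1.12%, and no other share moved by over 1.5 times.

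The main limits are depth and annotation. In the shallowest class of members, few calls were made in any line, so a missing call there is not a lack of change. Ratios rest on few 10 kb reads, and internal priming and a neighbour's ends were not told apart from the gene's own. A summed 3′ UTR length mixes transcripts. Both shRNAs were pooled in the knockdown group.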
